A study of Mus musculus with 24 samples.

Results

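The 5 transcripts described here are those whose RNA and ribosome footprint levels together stood lowest, relative to control, in mouse forelimbs that had lost 1 allele of Rps6 in the absence of p53. They were chosen from a table of 21960 transcripts in forelimbs at E10.5. A transcript had to reach a mean of at least 50 CPM (counts scaled to the library total) in both RNA and footprints of the Rps6 WT, Trp53 null limbs, and 3366 transcripts did. For each of these the log2 ratio of Rps6 het to Rps6 WT in Trp53 null was taken in RNA and in footprints, with 0.5 CPM added to each group mean. The 5 transcripts with the lowest average of both ratios are the members. In order they are ENSMUST00000102814.4, ENSMUST00000142837.2, ENSMUST00000131070.1, ENSMUST00000043584.4 and ENSMUST00000138502.1. The table pairs no gene names with these IDs, and 0 of the 21960 IDs matched the gene tables used here, so no symbol, position or sequence is given for any member. Which of them, if any, comes from Rps6 itself, the deleted gene, is therefore not stated, and the tissue and the deleted alleles were not checked through marker genes.

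Ribosomal protein S6, the product of Rps6, is part of the small ribosomal subunit and a well-known target of growth factor signalling through S6 kinase. Cells that lack one copy of a ribosomal protein gene make fewer complete subunits, and unassembled ribosomal proteins can bind Mdm2 and so stabilise p53, the transcription factor encoded by Trp53. Ribosome profiling sequences the stretches of mRNA that ribosomes protect from RNase, so footprints and total RNA of the same lysate separate the amount of a transcript from the ribosomes found on it.

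Each of 4 genotypes was sampled as 3 replicates, and each replicate pooled limb material of 2 embryos of that genotype. All embryos carried 1 floxed Rps6 allele. The Rps6 WT, Trp53 WT limbs (Rps6lox/+;Trp53+/+) and the Rps6 WT, Trp53 null limbs (Rps6lox/+;Trp53-/-) had no Cre, and the Rps6 het, Trp53 WT limbs (Prx1Cre;Rps6lox/+;Trp53+/+) and the Rps6 het, Trp53 null limbs (Prx1Cre;Rps6lox/+;Trp53-/-) carried the Prx1Cre transgene. Prx1Cre drives recombination in limb bud mesenchyme, so ectoderm, blood and vessel cells in the same lysate are expected to keep both Rps6 alleles, whereas Trp53 was absent from every cell of the null embryos. RNA libraries held 14291854 to 29104669 counts and libraries of ribosome-protected fragments (RPF) held 7026056 to 16835045. The smallest count of any member in any library was 303, where counting error alone gives a relative SD of 5.74%. In these bulk limbs, fewer cells of a type and less RNA per cell cannot be told apart. Nor can loss of an Rps6 allele be told apart from the presence of Prx1Cre. Every Rps6 het group carried it and no Rps6 WT group did.

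The values that chose the members spread widely. The average log2 ratio in Trp53 null was −0.63 for ENSMUST00000102814.4, −0.33 for ENSMUST00000142837.2 and −0.26 for ENSMUST00000131070.1, and −0.24 for both ENSMUST00000043584.4 and ENSMUST00000138502.1. The first member stood 0.30 below the second, whereas the fifth stood only 0.012 below the next transcript, which had an average of −0.23 and was left out. Over all 3366 transcripts the median was 0.0089, the lowest 1% lay under −0.18, and 14 transcripts lay under −0.2. At the other end, the highest average was 0.40. These numbers describe the choice and carry no test.

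**Figure D1:**
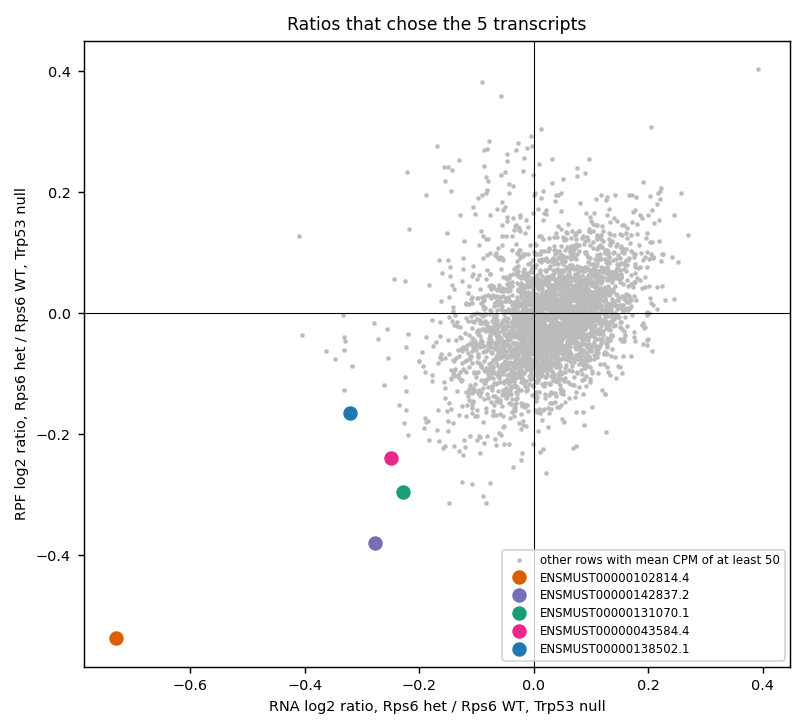
RNA log2 ratio (x axis) against RPF log2 ratio (y axis) of Rps6 het to Rps6 WT in Trp53 null, for the 3366 transcripts with a mean of at least 50 CPM. Each grey dot is 1 transcript and the coloured dots are the 5 members; ENSMUST00000102814.4 lies apart at −0.73 in RNA and −0.54 in RPF, and the other 4 lie at the edge of the cloud.

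The Trp53 WT libraries took no part in the choice, so the question of whether the members are also lower in Rps6 het limbs with p53 present was tested there. ENSMUST00000102814.4 and ENSMUST00000142837.2 fell in both RNA and footprints, ENSMUST00000131070.1 fell in footprints, ENSMUST00000138502.1 fell in RNA, and ENSMUST00000043584.4 was called in neither. By edgeR's quasi-likelihood test with Benjamini-Hochberg adjustment over all transcripts tested, 3 of the 5 members were called lower in RNA (adjusted p under 0.05) and 0 higher. The background was a called-lower share of 11.7% over all 14411 transcripts and 12.4% over the 3366 that met the minimum level, and a called-higher share of 13.1% and 20.7%. In footprints 3 of 5 were called lower and 0 higher, against 11.7% lower and 13.2% higher of 12147 transcripts and 16.2% and 22.5% of the 3366. At an unadjusted edgeR p under 0.05 the number higher was also 0 in both kinds, as it was by the DESeq2 Wald test and limma-voom. Both kinds were called lower for 2 members, against 8.35% of the 3366. The median log2 fold change of the 5 members was −0.19 in RNA and −0.24 in RPF, beside 0.026 and 0.014 over the 3366. All 5 passed the filter on low counts in every fit. A count over 5 transcripts is coarse, and the members are described one by one below.

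**Figure D2:**
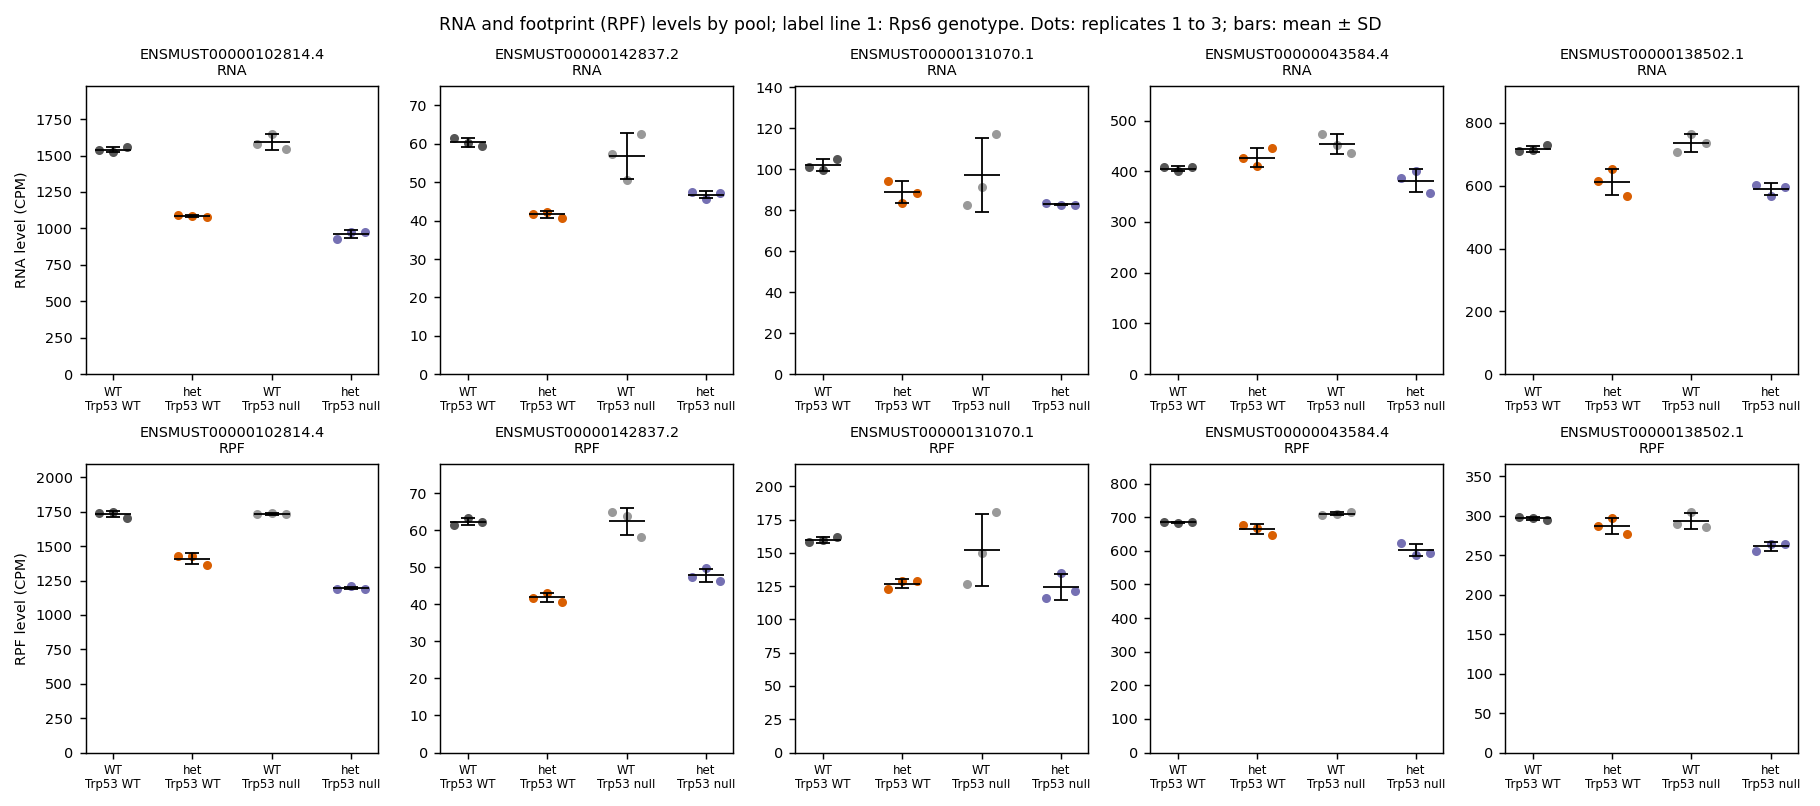
Levels in CPM (y axis, from 0) of the 5 members in RNA (top) and RPF (bottom) for the 4 genotypes (x axis, with the Rps6 genotype above the Trp53 genotype). Dots are replicates 1 to 3 from left to right and bars are the mean ± SD; ENSMUST00000102814.4 and ENSMUST00000142837.2 are lower in every Rps6 het pool of both backgrounds, and ENSMUST00000131070.1 scatters widely among the Rps6 WT, Trp53 null pools.

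ENSMUST00000102814.4, the member with the lowest ratio, had replicates that varied little. Its RNA level in replicates 1 to 3 was 1540, 1523 and 1556 CPM in Rps6 WT, Trp53 WT limbs and 1095, 1084 and 1077 CPM in Rps6 het, Trp53 WT limbs. The groups were far apart, with a Rps6 het mean of 1085 ± 8.90 CPM (SD, n = 3) that was 70.5% of the Rps6 WT mean of 1539 ± 16.5 CPM. The log2 fold change in the fit was −0.47 ± 0.043 (SE), with an edgeR adjusted p = 2.07e-06. Footprints were 1744, 1748 and 1706 CPM in Rps6 WT, Trp53 WT and 1432, 1430 and 1363 CPM in Rps6 het, Trp53 WT. The Rps6 het footprint mean of 1409 ± 39.1 CPM was thus 81.3% of the Rps6 WT mean of 1733 ± 23.3 CPM, a smaller gap than in RNA, and again without overlap. The footprint log2 fold change was −0.24 ± 0.035 (SE; edgeR adjusted p = 8.72e-06).

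In Trp53 null, the contrast that chose it, RNA of ENSMUST00000102814.4 was 1581, 1649 and 1546 CPM in Rps6 WT and 928, 975 and 976 CPM in Rps6 het. Footprints were 1731, 1742 and 1735 CPM in Rps6 WT and 1189, 1208 and 1191 CPM in Rps6 het. The Rps6 het means were 60.3% of Rps6 WT in RNA and 68.9% in footprints, so the gap was wider here than with p53 present. Subtracting the fitted Trp53 null change from the Trp53 WT change left 0.28 for RNA and 0.29 for RPF, a difference that contains the chosen contrast and was not tested. Between the Rps6 WT groups the levels hardly differed, with a Trp53 null mean at 103% of Trp53 WT in RNA and 100.2% in footprints and overlapping replicates in both. Between the Rps6 het groups, all 3 Trp53 null pools were below all 3 Trp53 WT pools in each library kind, at 88.4% in RNA and 84.9% in footprints. Of the 3366 transcripts, 33.7% in RNA and 41.2% in RPF had no overlap between these groups, in either direction. The order from high to low was the Rps6 WT groups, with no separation between them, then Rps6 het, Trp53 WT, then Rps6 het, Trp53 null. The last place is a description only, since the rule picked transcripts with a low Rps6 het level in Trp53 null. The same holds for every comparison of Trp53 genotypes given for the other members, because each uses Trp53 null libraries that entered the choice.

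ENSMUST00000142837.2, a transcript of far fewer counts, had the opposite order within Rps6 het limbs. Its RNA was 61.6, 60.3 and 59.4 CPM in Rps6 WT, Trp53 WT and 41.8, 42.4 and 40.7 CPM in Rps6 het, Trp53 WT. Footprints were 61.5, 63.3 and 62.2 CPM and 41.7, 43.1 and 40.7 CPM in the same groups. The Rps6 het means were 68.9% of Rps6 WT in RNA and 67.2% in footprints, so both library kinds differed by nearly the same factor, and the groups did not overlap. The log2 fold changes were −0.50 ± 0.059 (SE; edgeR adjusted p = 2.26e-05) in RNA and −0.52 ± 0.059 (SE; edgeR adjusted p = 1.89e-07) in RPF.

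With p53 absent, RNA of ENSMUST00000142837.2 was 57.4, 50.5 and 62.6 CPM in Rps6 WT and 47.6, 45.6 and 47.2 CPM in Rps6 het. Its footprints were 64.9, 63.9 and 58.3 CPM in Rps6 WT and 47.4, 49.7 and 46.2 CPM in Rps6 het. The Rps6 WT replicates scattered more than those of the other genotypes, with a coefficient of variation (CV, the SD over the mean) of 10.7% in RNA, beside a median of 4.25% over the 3366 transcripts. Replicate 2 was the lowest in RNA but not in footprints. The Rps6 het means were 82.3% of Rps6 WT in RNA and 76.6% in footprints, a narrower gap than in Trp53 WT, and subtracting the fitted Trp53 null change from the Trp53 WT change left −0.20 for RNA and −0.14 for RPF, not tested. Within Rps6 het limbs, all Trp53 null pools were above all Trp53 WT pools, at 112.5% in RNA and 114% in footprints, whereas the Rps6 WT groups overlapped. Such separation of the Rps6 het groups, in either direction, was common, at 33.7% of the 3366 transcripts in RNA and 41.2% in RPF.

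ENSMUST00000131070.1 was lower in footprints of Rps6 het limbs with p53, but the Trp53 null values that chose it were scattered. RNA was 101, 99.5 and 105 CPM in Rps6 WT, Trp53 WT and 94.3, 83.6 and 88.7 CPM in Rps6 het, Trp53 WT. Footprints were 158, 159.5 and 162 CPM and 123, 129 and 129 CPM. Neither kind overlapped between the groups, and the Rps6 het means were 87.2% of Rps6 WT in RNA and 79.4% in footprints. The footprint log2 fold change of −0.27 ± 0.077 (SE) was called, with an edgeR adjusted p = 0.0098, but not by the DESeq2 Wald test (adjusted p = 0.079). The RNA log2 fold change of −0.16 ± 0.084 (SE) was not called (edgeR adjusted p = 0.184), though a fit of the Trp53 WT libraries alone called it (adjusted p = 0.0252).

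Among the Rps6 WT, Trp53 null pools the level of ENSMUST00000131070.1 varied by pool, and in the same order in both library kinds. Replicates 1 to 3 had 82.6, 91.5 and 117 CPM in RNA and 127, 149.8 and 181 CPM in footprints. The CV was 18.6% in RNA and 17.8% in RPF, above the 95th percentile of the 3366 transcripts in that group, which was 8.97% and 7.51%. The footprint to RNA ratio of these 3 pools stayed between 1.53 and 1.64. In Rps6 het, Trp53 null limbs RNA was 83.3, 82.8 and 82.5 CPM and footprints were 116, 135 and 121 CPM, so both kinds overlapped with Rps6 WT. Without replicate 3 of Rps6 WT, Trp53 null the log2 change in Trp53 null moved from −0.24 to −0.097 in RNA and from −0.29 to −0.15 in RPF, and the transcript was no longer among the 5 lowest. Of the 6 ways to leave out 1 Trp53 null pool, 3 dropped this transcript from the 5 lowest, 4 dropped ENSMUST00000043584.4 and 5 dropped ENSMUST00000138502.1, while ENSMUST00000102814.4 and ENSMUST00000142837.2 were kept in all 6. The Trp53 null pools are in neither group compared with p53 present, but they enter the shared estimate of spread in that fit.

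ENSMUST00000043584.4 was low in RNA and footprints of Rps6 het limbs in Trp53 null, and was called in neither with p53 present. In Trp53 null its RNA was 474, 451 and 435 CPM in Rps6 WT and 387, 401 and 356 CPM in Rps6 het. Footprints there were 706, 709.6 and 715 CPM in Rps6 WT and 622, 588 and 594 CPM in Rps6 het. These chosen values did not overlap, with Rps6 het at 84.1% of Rps6 WT in RNA and 84.7% in footprints. In Trp53 WT, RNA was 409, 399.6 and 408 CPM in Rps6 WT and 425, 410.3 and 446 CPM in Rps6 het, so that every Rps6 het pool was slightly above every Rps6 WT pool. This RNA log2 fold change of 0.12 ± 0.054 (SE) was not called (edgeR adjusted p = 0.138). The share of transcripts with all Rps6 het pools above all Rps6 WT pools was not counted, so this non-overlap supports nothing.

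Footprints of ENSMUST00000043584.4 in Trp53 WT were 686, 684 and 685 CPM in Rps6 WT and 678, 667 and 648 CPM in Rps6 het. On library totals the Rps6 het pools were therefore below the Rps6 WT pools, at 96.9% of the mean. With the TMM scaling of the fit the log2 fold change was 0.015 ± 0.035 (SE; edgeR adjusted p = 0.801), and on library totals alone it was −0.045, so neither scaling called a change and the sign depended on the scaling. Over the 3366 transcripts, TMM moved the Trp53 WT comparison by 0.060 in RPF and 0.039 in RNA relative to library totals. With Rps6 intact, Trp53 null pools of this transcript were above Trp53 WT pools, at 112% in RNA and 104% in footprints, and with Rps6 het they were below, at 89.3% and 90.5%. A rule that takes the lowest Rps6 het to Rps6 WT ratio in Trp53 null favours both of these positions, so the crossing is part of the choice and supports nothing. Non-overlap of this kind in either direction was common, at 34.9% of the 3366 transcripts in RNA and 8.14% in RPF with Rps6 intact, and 33.7% and 41.2% with Rps6 het.

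ENSMUST00000138502.1 differed in RNA more than in footprints in both backgrounds. Its RNA was 711, 714 and 729 CPM in Rps6 WT, Trp53 WT and 614, 653 and 569 CPM in Rps6 het, Trp53 WT. Footprints were 299, 297.1 and 295 CPM in Rps6 WT, Trp53 WT and 288, 297 and 277 CPM in Rps6 het, Trp53 WT. The RNA groups did not overlap, and Rps6 het stood at 85.2% of Rps6 WT, while the footprint groups overlapped, with a mean at 96.6%. The RNA log2 fold change was −0.19 ± 0.051 (SE; edgeR adjusted p = 0.013). It missed the threshold without Rps6 WT, Trp53 WT replicate 3 (adjusted p = 0.0512) and without Rps6 het, Trp53 WT replicate 3 (adjusted p = 0.0609). The footprint log2 fold change was 0.008 ± 0.04 (SE; edgeR adjusted p = 0.907).

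In Trp53 null, RNA of ENSMUST00000138502.1 was 706, 765 and 736 CPM in Rps6 WT and 603, 567 and 597 CPM in Rps6 het. Its footprints there were 289.5, 305 and 286 CPM in Rps6 WT and 255, 265 and 264 CPM in Rps6 het. Rps6 het stood at 80.1% of Rps6 WT in RNA and at 89.1% in footprints, both without overlap. Across Trp53 genotypes the replicates overlapped in RNA in both Rps6 genotypes, and in footprints with Rps6 intact. The footprints of Rps6 het, Trp53 null pools were all below those of Rps6 het, Trp53 WT pools, at 91.05% of their mean. Footprint groups without overlap in this comparison, in either direction, were common, at 41.2% of the 3366 transcripts.

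Counted over the members, all 3 Rps6 het pools lay below all 3 Rps6 WT pools for 4 of 5 in RNA and 4 of 5 in RPF with p53 present, where 29.2% and 36.2% of the 3366 transcripts did so on library totals. Both kinds at once were lower for 3 of 5, against 20.6%. In Trp53 null the same count was 4 of 5 in RNA and 4 of 5 in RPF, against 4.84% and 13.6%, and 4 of 5 in both at once, against 2.14%, and these are the values that chose them. Ranked by the average log2 ratio in Trp53 WT, computed as in the rule, ENSMUST00000142837.2 was number 17 from the lowest of 3366, ENSMUST00000102814.4 number 57, ENSMUST00000131070.1 number 192, ENSMUST00000138502.1 number 682 and ENSMUST00000043584.4 number 2091.

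**Figure D3:**
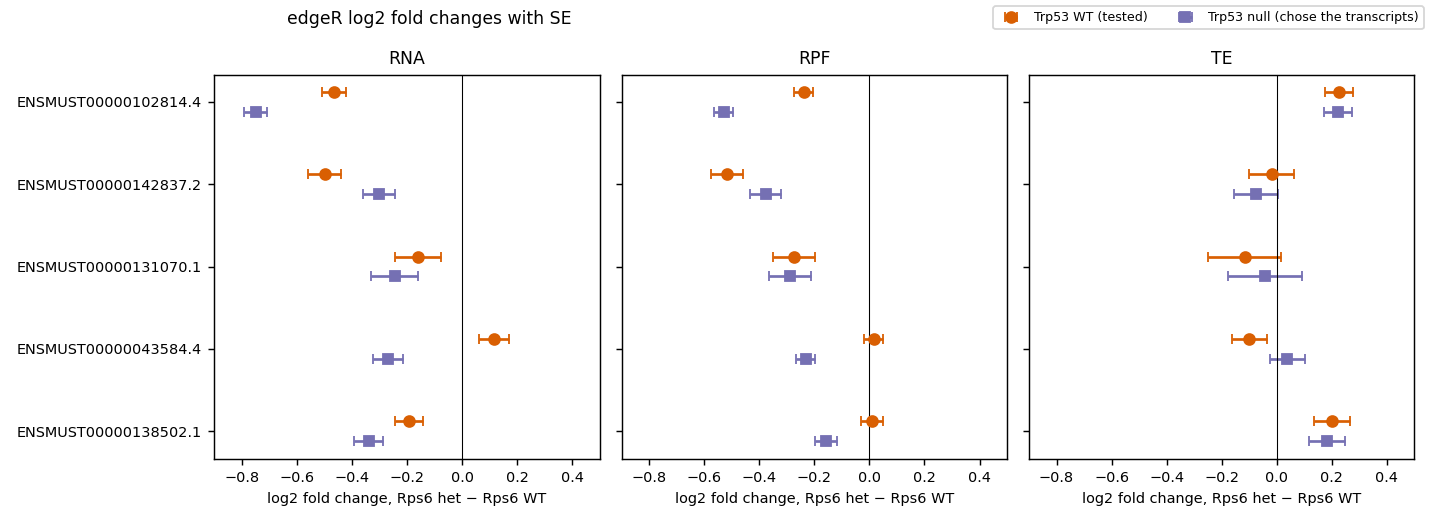
Log2 fold change of Rps6 het against Rps6 WT (x axis) for the 5 members (y axis) in RNA, RPF and translational efficiency (TE), as fitted by edgeR. Circles are Trp53 WT, which was tested, squares are Trp53 null, which chose the transcripts, and bars are SE; RNA of ENSMUST00000043584.4 is at 0.12 in Trp53 WT and −0.27 in Trp53 null, and TE of ENSMUST00000102814.4 is at 0.23 and 0.22.

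Translational efficiency, the footprint change beyond the RNA change, was called higher for 1 member with p53 present in the main fit. That fit treated the RPF and RNA libraries of a pool as independent, although they come from the same lysate. With the pool as a block, 2 members were called higher, among 119 of 14080 transcripts called higher in that fit. For ENSMUST00000102814.4 the ratio of footprint CPM to RNA CPM, which can be compared only within a transcript because the lengths of the counted regions are not known, was 1.13, 1.15 and 1.10 in Rps6 WT, Trp53 WT. In Rps6 het, Trp53 WT it was 1.31, 1.32 and 1.27, above every Rps6 WT pool. The TE log2 change was 0.23 ± 0.052 (SE), with an edgeR adjusted p = 0.0263. In the main fit TE was called higher for 0.497% of 14080 transcripts and for 1.72% of the 3366. Called lower in TE were 0 members, against 0.675% and 1.84%, and 0 also at an unadjusted p under 0.05, by DESeq2 and by limma-voom. With the pool that gave both libraries as a block the adjusted p was 0.00758. Leaving out one Trp53 WT pool at a time lost the call in 5 of 6 fits, with log2 changes of 0.20 to 0.24 and adjusted p of 0.0718 to 0.19; the exception was the fit without Rps6 het, Trp53 WT replicate 3. In Trp53 null, where the transcript was chosen, the ratio was 1.10, 1.06 and 1.12 in Rps6 WT and 1.28, 1.24 and 1.22 in Rps6 het.

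For ENSMUST00000138502.1 the ratio was also higher in every Rps6 het pool, but the TE change was not called in the main fit. The share of the 3366 transcripts whose ratio separates in this way was not counted, so this non-overlap supports nothing here or for ENSMUST00000102814.4. The ratio was 0.42, 0.416 and 0.405 in Rps6 WT, Trp53 WT and 0.469, 0.455 and 0.487 in Rps6 het, Trp53 WT, with no overlap. The TE log2 change was 0.20 ± 0.065 (SE; edgeR adjusted p = 0.163), and of the 14 alternatives run it was called only with the pool as a block (adjusted p = 0.028). In Trp53 null the ratio was 0.41, 0.398 and 0.388 in Rps6 WT and 0.423, 0.468 and 0.442 in Rps6 het.

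For the other members TE was not called, with log2 changes in Trp53 WT of −0.019 ± 0.081 (SE) for ENSMUST00000142837.2, −0.12 ± 0.13 for ENSMUST00000131070.1 and −0.10 ± 0.064 for ENSMUST00000043584.4, and edgeR adjusted p of 1, 0.902 and 0.674. The footprint to RNA ratio of ENSMUST00000142837.2 averaged 1.03 ± 0.030 (SD, n = 3) with Rps6 intact and p53 present and 1.01 ± 0.011 in Rps6 het, Trp53 WT. These p-values do not show that TE was equal in both genotypes.

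**Figure D4:**
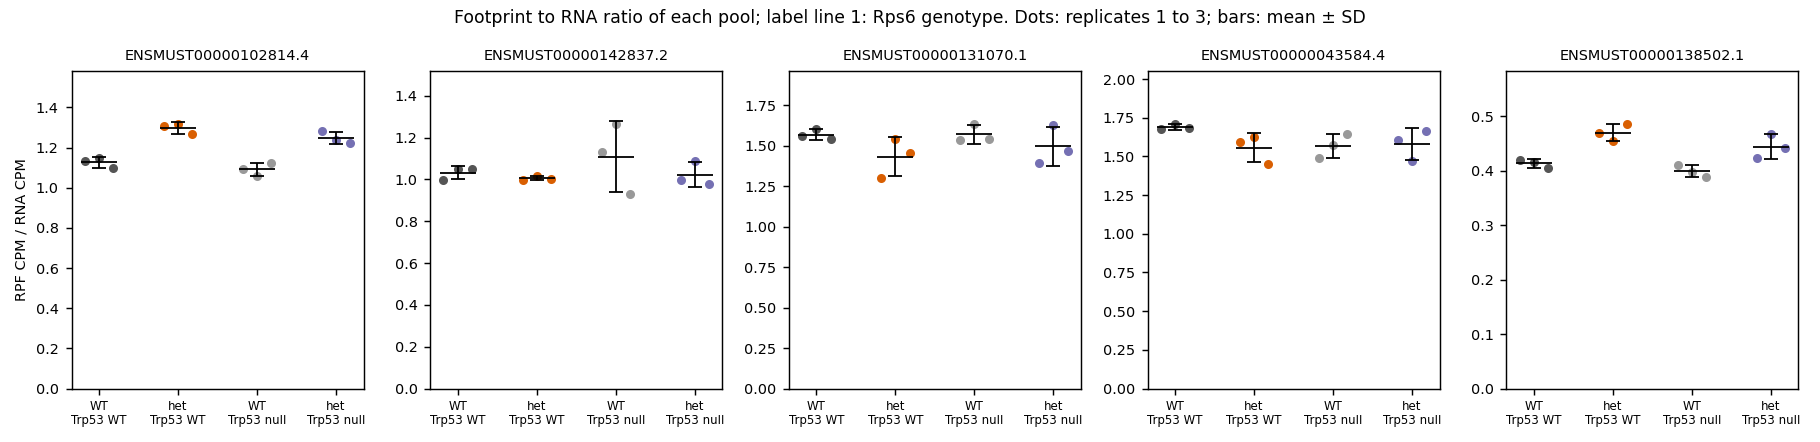
Ratio of footprint CPM to RNA CPM (y axis, from 0) in each pool of the 4 genotypes (x axis, with the Rps6 genotype above the Trp53 genotype) for the 5 members. Dots are replicates 1 to 3 and bars are the mean ± SD. For ENSMUST00000102814.4 and ENSMUST00000138502.1 every Rps6 het pool lies above every Rps6 WT pool of the same background. How often this holds among other transcripts was not counted.

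The transcripts with the most similar pattern were sought by the correlation of log2 CPM over the 12 RNA and the 12 RPF libraries, averaged, among 12116 transcripts tested in both. These correlations describe libraries that share 4 genotypes, and the nearest of so many transcripts is close by choice. They include the Trp53 null libraries in which all members were picked for a low Rps6 het level, so likeness between members is partly fixed by the rule. ENSMUST00000138502.1 and ENSMUST00000102814.4 were near each other, with r = 0.936 in RNA and 0.789 in RPF, and ENSMUST00000102814.4 was the nearest of all transcripts to ENSMUST00000138502.1. The nearest to ENSMUST00000102814.4 was ENSMUST00000043867.10, which is not a member, with r = 0.962 in RNA and 0.951 in RPF. The other 3 members each had a different nearest transcript, with an average r of 0.93 for ENSMUST00000142837.2, 0.77 for ENSMUST00000131070.1 and 0.85 for ENSMUST00000043584.4, so the weakest match was that of the member with the scattered Trp53 null pools. Between members the average r ran down to 0.24, for ENSMUST00000142837.2 and ENSMUST00000043584.4.

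ENSMUST00000043867.10 stood lower in Rps6 het than any of the 5 members and was outside the rule because its footprint level in Rps6 WT, Trp53 null, 16.2 ± 2.12 CPM (SD, n = 3), was under the minimum. Its RNA was 66.4, 69.8 and 70.1 CPM in Rps6 WT, Trp53 null and 31.1, 30.5 and 38.2 CPM in Rps6 het, Trp53 null, where the Rps6 het mean was 48.4% of Rps6 WT. In Trp53 WT it was 74.2, 78.1 and 79.1 CPM in Rps6 WT and 43.9, 46.4 and 38.6 CPM in Rps6 het, or 55.7%. Its footprints were 48.5% of Rps6 WT in Trp53 null and 61.2% in Trp53 WT, from 75 to 352 counts a library. Every Rps6 het pool of it without p53 was below every one with p53 in both library kinds, narrowly in RNA (38.2 against 38.6 CPM). Of the 3366 transcripts, 33.7% in RNA and 41.2% in RPF had no overlap there, in either direction. ENSMUST00000102814.4 had the same order, but likeness over these libraries is how ENSMUST00000043867.10 was found, so the match is partly fixed. With Rps6 intact, RNA of ENSMUST00000043867.10 was lower in every Trp53 null pool than in every Trp53 WT pool, unlike ENSMUST00000102814.4. RNA of 34.9% of the 3366 transcripts had no overlap in that comparison, in either direction. Since ENSMUST00000043867.10 stood lower, the 5 members are the lowest only among transcripts at or above the minimum level.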

How the data were processed

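The authors deposited whole-number counts per transcript for 24 libraries in 1 table, with no normalization. By its name, RPF counts cover coding sequence and RNA counts whole transcripts. The submitters' processing notes list Bowtie2, UMI-tools, GRCm38 and mm10; versions, the counting tool, the annotation release and how reads shared by near-identical transcripts were assigned are not given in the sources used here, so each member's level is uncertain to that extent. Columns were matched to samples by genotype, library kind and replicate number.

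Transcripts were filtered by filterByExpr (minimum count 10, minimum total 15), scaled by TMM within a library kind and tested with edgeR 4.0.16 in R 4.3.3 (glmQLFit, glmQLFTest), with the 4 genotypes in one model without covariates. TE was the difference between the RPF and the RNA change in one model of 24 libraries. That model had no term for the pool, which was added as a block in an alternative fit. Adjusted p-values are Benjamini-Hochberg values over all transcripts tested, called under 0.05; 15 tests concern the members. SEs were derived from the F statistic, and the code was tested on simulated data. Levels are CPM on library totals; correlations used TMM-scaled log2 CPM with a prior count of 2. DESeq2 1.42.0 and limma-voom (limma 3.58.1) were alternatives.

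The members and lists were chosen with earlier results of these data known. The rule for naming covered the 5 members, the next 5 of the ranking and the 3 transcripts of closest pattern to each member. Without gene names, only the members and 1 close transcript, the nearest to ENSMUST00000102814.4, are printed by ID. The other close transcripts, some of which also stood lower in Rps6 het, are not described. Planned lists of ribosomal protein genes, assembly factors, p53 targets and cell type markers were not run, since no ID matched a gene name. RPF and RNA libraries of one genotype and number are parts of the same lysates, per the labels' protocols; their deviations from group means correlated with r of 0.112 to 0.384 over the 12 pools. Pools of different genotypes are different embryos. P-values set the difference between genotypes against the spread between pools, estimated over all 4 genotypes in one fit and moderated across transcripts.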

Additional observations from a re-analysis of the deposited data

Results flagged for a closer look

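For RNA of ENSMUST00000043584.4, every Rps6 het pool was above every Rps6 WT pool in Trp53 WT (410.3 to 446 against 399.6 to 409 CPM), and every Rps6 het pool was below every Rps6 WT pool in Trp53 null (356 to 401 against 435 to 474 CPM). The gap in Trp53 WT was narrow and the change there was not called (edgeR adjusted p = 0.138). How many transcripts separate upward in Trp53 WT was not counted. In Trp53 null, 4.84% of the 3366 transcripts separated downward in RNA. Subtracting the fitted Trp53 null log2 change from the Trp53 WT change left 0.38. This difference between the backgrounds was not tested, because the Trp53 null values are among those that chose the transcript, and a low Rps6 het level there is what the rule selects. Groups of 3 replicates are too small to look for single outlying pools.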

How the results depend on the processing

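Of 200 refits of single-member changes in Trp53 WT, 184 kept their direction and side of the threshold, 8 lost and 2 gained a call, and 6 changed sign without being called in either fit. All 13 alternatives in each library kind kept the calls of ENSMUST00000102814.4 and ENSMUST00000142837.2 in RNA and RPF. The sign changes were in RPF: ENSMUST00000043584.4 at −0.045 on library totals and −0.008 without Rps6 het, Trp53 WT replicate 1, and ENSMUST00000138502.1 at −0.052 on library totals, −0.006 without Rps6 WT replicate 3, and −0.002 and −0.015 without Rps6 het replicates 1 and 2. Over all fits that left out 1 pool these ran from −0.008 to 0.04 and from −0.015 to 0.043. The cause was not tested. Leaving out 1 pool at a time left 2 to 3 members called lower in RNA, 3 in RPF, and 0 to 1 called higher in TE. With the pool as a block 2 members were called higher in TE, among 119 of 14080 transcripts called higher in that fit. Library totals alone gave 2395 RPF transcripts called lower and 1033 higher in place of 1421 and 1598, and 2226 and 1439 in RNA in place of 1688 and 1892, and the members' calls did not change. Over all transcripts, the number of TE calls, 165, ran from 58 to 393 over the alternatives.

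Membership depended on the rule more than the tests did. All 5 members were kept with a pseudocount of 0 or 5 CPM, TMM-scaled CPM or the fitted fold changes. With a minimum of 20 CPM 1 member was kept, with 100 CPM 3, by RNA alone 1 and by RPF alone 2. Leaving out 1 Trp53 null pool kept 2 to 4. ENSMUST00000102814.4 was first in all 14 alternatives. The difference between backgrounds for ENSMUST00000131070.1, 0.086 in RNA and 0.015 in RPF, became −0.067 and −0.13 without Rps6 WT, Trp53 null replicate 3, and in RPF −0.036 on library totals, −0.037 without Rps6 het, Trp53 null replicate 1 and −0.002 without replicate 3, with highs of 0.187 in RNA and 0.131 in RPF without Rps6 WT, Trp53 null replicate 1; the cause was not tested.

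The replicate number as a block changed no call of a member; for example the RNA change of ENSMUST00000102814.4 was −0.47. It gave 3 members called lower in RNA, 3 in RPF and 0 in TE, 1 called higher in TE, and 263 TE calls over all transcripts. Same-numbered Trp53 WT pools of both Rps6 genotypes correlated with r of −0.001 to 0.149 in RNA and −0.02 to 0.044 in RPF, and 3 of 6 RNA and 2 of 6 RPF libraries correlated best with their own number, so the numbers were not taken as pairs.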
